A study of Homo sapiens with 12 samples.

Results

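The respiratory chain was followed here through the transcripts of its subunits in 2 human cell lines of multiple myeloma, LP-1 and U266, after dihydroartemisinin (DHA). The genes were taken by symbol: the NDUFA, NDUFB, NDUFC, NDUFS and NDUFV genes with a number, NDUFAB1, SDHA to SDHD, the UQCR genes, CYC1, the COX4 to COX8 subunits and the ATP5 genes that both tables hold, together with the 13 protein genes of mitochondrial DNA, which the LP-1 table alone holds. This gave 101 genes, 88 of them nuclear, out of 61806 genes in the LP-1 table and 19130 in the U266 table. By complex, the nuclear genes numbered 37 for complex I, 4 for complex II, 10 for complex III, 19 for complex IV and 18 for complex V. NDUFA4 and its paralog NDUFA4L2 were counted with complex IV, since NDUFA4 protein is now assigned there.

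Wild-type cells of both lines, grown in RPMI-1640 with fetal bovine serum, received DHA at its IC50 or the same amount of the solvent DMSO, and RNA was taken after 12 h. There were 4 groups of 3 libraries: LP-1 with DHA, LP-1 with DMSO, U266 with DHA and U266 with DMSO. DHA is an artemisinin derivative with an endoperoxide bridge that iron opens, and the IC50 itself is not stated, so doses may differ between the lines. Each line stands for 1 tumour, and the labels do not say whether replicates were separate cultures, so the p-values here reflect the spread among these libraries alone, which may be technical.

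The chain carries electrons from NADH (complex I) and succinate (complex II) through ubiquinone to complex III, and through cytochrome c to complex IV, which reduces oxygen. Complexes I, III and IV pump protons, and complex V, the ATP synthase, lets them flow back to make ATP. Every complex except complex II joins subunits from the nuclear genome with subunits that mitochondrial DNA encodes and mitochondrial ribosomes make. The mitochondrial genes are transcribed as long precursors from both DNA strands and cut into single transcripts, so their levels also depend on processing and decay.

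FPKM, a read count divided by the length of the transcript and the size of the library, was given in a table for each line. LP-1 libraries held 13.4 to 17.5 M reads and U266 libraries 10.3 to 21.7 M, as recovered from the steps of low values, and the floor of 3 reads at a length of 2 kb lay between 0.0690 and 0.146 FPKM; intervals and floors of this kind cover counting error only. Plasma cell markers were present in both lines (9 of 10 with a mean of at least 1 FPKM in each), while B cell, T cell, monocyte, erythroid and stromal markers were low: their sums stayed at or under 11.6 FPKM in every library. U266 DHA replicate 3 had 18399 genes above 0, against 14682 to 14992 in the other U266 libraries. LP-1 DMSO replicate 3 stood apart for the genes described here. Its nuclear members lay a median of 0.74 (log2) above the mean of the other 2 DMSO libraries, and its mitochondrial protein genes lay 0.86 below (median -0.86). Tested genes were also split into 3 classes of equal size by exon length. The short class, up to 3018 bases, had a median deviation of 0.21 in this library, and the long class, above 5908 bases, a median of -0.27. Of the 80 nuclear members tested in LP-1, 47 are in the short class. Counts of LP-1 calls are therefore given with and without this library.

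**Figure D1:**
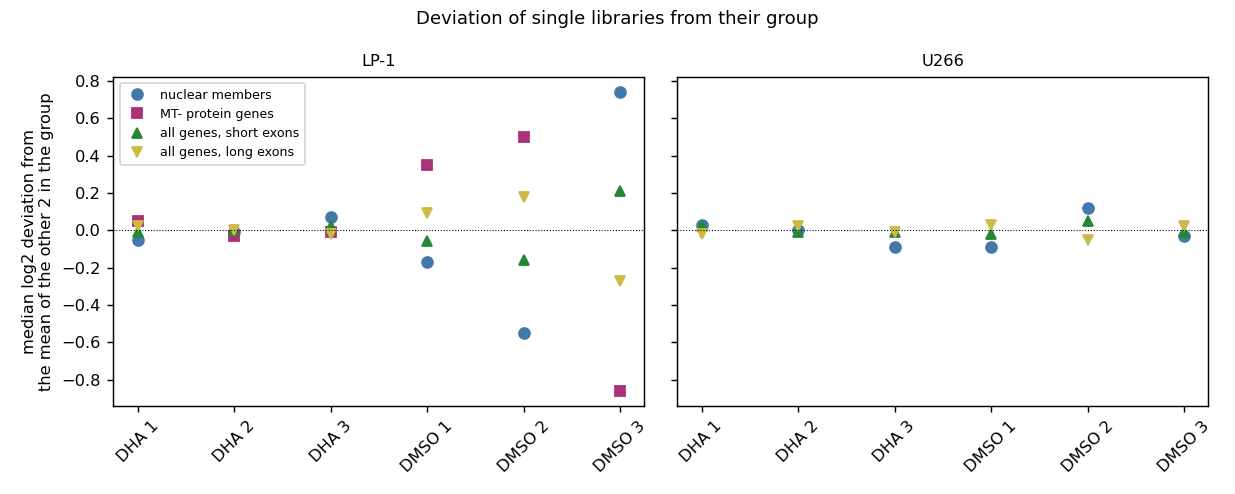
Median deviation of each library from the mean of the other 2 libraries of its group (vertical axis, log2(FPKM + 1) units) for nuclear members, the 13 mitochondrial protein genes, and all tested genes with short or long exons, in LP-1 (left) and U266 (right). The LP-1 DHA libraries lie close to 0, whereas DMSO replicate 3 reaches 0.74 for nuclear members and -0.86 for mitochondrial ones.

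Nuclear-encoded subunits were lower with DHA in LP-1, by a median of -0.49 on the log2(FPKM + 1) scale over the 80 tested members, where the median of all 12514 tested genes was 0.01. By limma at 0.05, with Benjamini-Hochberg adjustment over every gene tested, 21 of the 80 fell and 2 rose, and 57 passed in neither direction; 20.2% of all tested genes were called lower and 20.0% higher. The difference was negative for 76 of 80 members, and in 44 of 80 every DHA value lay below every DMSO value, as it did in 28.6% of all tested genes; in 2 every DHA value lay above, against 30.2%. A member had to reach 1 FPKM in at least 3 of 6 libraries to be tested. These are shares of each library's RNA: fewer molecules per cell and a shift in the make-up of the RNA or of the cells cannot be told apart.

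Without DMSO replicate 3 the median was smaller in size, -0.24, and 33 of 80 members were lower and 4 higher, against 27.0% and 28.9% of all tested genes. The LP-1 count depended on every library: it was 1 without DHA replicate 1, 0 without DHA replicate 2 (19 at an unadjusted p under 0.05), 4 without DHA replicate 3, 5 without DMSO replicate 1 and 48 without DMSO replicate 2. In the first 4 of these fits 12.6 to 13% of all tested genes were called lower, so that the members' share lay below that of all genes, and without DMSO replicate 2 it was 21% of all tested genes. The nuclear members with short exons had a median of -0.56 in LP-1, those of middle length -0.43 and those with long exons -0.34, while all other tested genes in these classes had medians of -0.16, 0.01 and 0.17. Without DMSO replicate 3 the same medians were -0.32, -0.19 and -0.17 for members and -0.09, 0.02 and 0.09 for other genes. The part of exon length in the result was not tested beyond removing its trend. After that, 19 of 80 members and 22.1% of all tested genes were called lower in LP-1, shares that are close to each other. With the trend left in, these were 21 of 80 and 20.2%. The change was negative for 74 of 80 members after removal, against 76 before it.

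In U266, 44 of 82 tested members fell and 2 rose, with a median log2 change of -0.23, where the median of all 10421 tested genes was 0.02 and 19.6% were called lower and 21.1% higher. All 3 DHA values lay below all 3 DMSO values in 49 of 82 members, against 23.9% of all tested genes. Complex V had the lowest median of the 5 complexes there, -0.35, with 14 of 17 tested members called lower. Leaving out single U266 libraries gave 37 to 48 members called lower, where 16.0 to 21% of all tested genes were. In a single fit of all 12 libraries, which pools the spread of both lines, 8 of 80 members and 12.4% of all 8934 tested genes were called lower in U266, and the members' share was then below that of all genes. In the length classes of the U266 table, members with short exons had a median of -0.27 and those of middle and long exons -0.07 and -0.08. All other tested genes in these classes had medians of -0.01, 0.03 and 0.06. After removing the exon length trend, 40 of 82 members and 20.7% of all tested genes were called lower in U266.

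**Figure D2:**
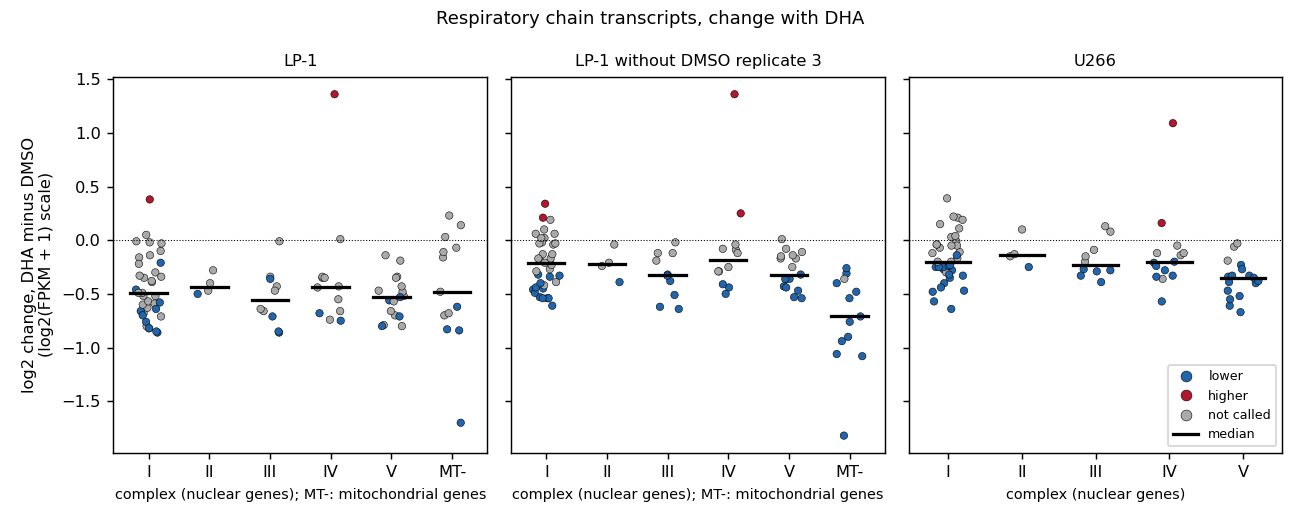
Log2 change with DHA (vertical axis, DHA minus DMSO on the log2(FPKM + 1) scale) of every tested member, by complex (horizontal axis), for LP-1, LP-1 without DMSO replicate 3, and U266; each point is a gene, coloured by its limma call, and bars are medians. Points lie mostly below 0 in each panel, the mitochondrial genes move to a median of -0.71 in the middle panel, and 1 complex IV gene, NDUFA4L2, lies above 1 in every panel.

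Of the 80 members tested in both lines, 12 fell in both, among them NDUFA3, NDUFB1, NDUFB3, NDUFS5 and NDUFS8 of complex I, SDHC of complex II, UQCR10 of complex III, COX6B1 and COX7B of complex IV, and ATP5MF and ATP5PF of complex V. Of the 8934 genes tested in both lines, 6.06% fell in both. With LP-1 taken without DMSO replicate 3 the number was 22 of 80, against 8.79% of all genes. NDUFA4L2 rose in both lines, as 10.2% of all genes did, and NDUFS1 rose in LP-1 and fell in U266. The 2 lines share no libraries. Across the 80 members, the log2 changes in LP-1 and U266 had a Pearson r of 0.58 (Spearman rho 0.40). With LP-1 taken without DMSO replicate 3, r was 0.56 (rho 0.33). NDUFA4L2, at 1.36 in LP-1 and 1.09 in U266, lay apart from the other members and weighs more on r than on rho. No r was computed without it. Members within a library are not independent, so no p is given.

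Promoters of 3 of these genes are shown because the genes stand for the 3 patterns: NDUFA4L2 rose in both lines, NDUFS1 went opposite ways, and ATP5PF fell in both. The stretches are 300 bases around the gene start taken from RefSeq (GRCh38.p14), most of them before that start. They run 5′ to 3′ on the gene's strand, and capitals mark any match to a motif searched. NDUFA4L2 is at chr12:57240713-57241012, NDUFS1 at chr2:206159395-206159694 and ATP5PF at chr21:25735005-25735304, all on the minus strand. Gene starts can differ in GENCODE v29. There ATP5PF starts at 25735673, so its window lies inside the gene. NDUFS1 starts at 206159603, with most of its window inside the gene.
NDUFA4L2: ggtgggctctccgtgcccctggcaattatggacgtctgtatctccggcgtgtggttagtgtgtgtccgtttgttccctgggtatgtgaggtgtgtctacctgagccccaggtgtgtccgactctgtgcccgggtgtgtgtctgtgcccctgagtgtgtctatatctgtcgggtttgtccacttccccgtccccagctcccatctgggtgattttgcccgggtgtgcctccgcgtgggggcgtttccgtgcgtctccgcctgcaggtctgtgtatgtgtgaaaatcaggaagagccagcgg
NDUFS1: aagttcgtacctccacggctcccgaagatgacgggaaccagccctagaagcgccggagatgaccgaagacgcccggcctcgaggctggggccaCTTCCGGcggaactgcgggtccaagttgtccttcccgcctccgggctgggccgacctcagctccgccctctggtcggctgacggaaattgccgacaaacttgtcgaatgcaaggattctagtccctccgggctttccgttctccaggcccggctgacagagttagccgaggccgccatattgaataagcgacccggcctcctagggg
ATP5PF: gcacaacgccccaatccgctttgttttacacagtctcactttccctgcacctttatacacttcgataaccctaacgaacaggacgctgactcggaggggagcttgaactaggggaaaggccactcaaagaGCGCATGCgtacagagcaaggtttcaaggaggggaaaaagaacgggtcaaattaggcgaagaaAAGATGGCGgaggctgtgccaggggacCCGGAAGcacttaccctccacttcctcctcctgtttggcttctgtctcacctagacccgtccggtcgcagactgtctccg

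The motifs were GCGCATGC for NRF1, CCGGAAG for GABPA and other ETS factors, AAGATGGCG for YY1, TCAAGGTCA for ESRRA and TGATGCAA for ATF4, each searched on both strands; the letters AAG can be shared by adjoining ETS and YY1 matches. NRF1, GABPA and YY1 are long known at promoters of respiratory chain genes. The NDUFA4L2 window held none of the 5 strings, the NDUFS1 window held the ETS string on the minus strand, and the ATP5PF window held the NRF1, YY1 and ETS strings. Of the 71 nuclear members with a promoter in the table, 18.3% held the NRF1 string, 28.2% the ETS string and 11.3% the YY1 string, where 4.26%, 14.2% and 2.74% of 15843 promoters of protein-coding genes held them. The ESRRA string was in 1.41% of member promoters (SDHD alone) and 0.240% of all, and the ATF4 string was in 0 of 71 and in 0.669% of all. A match is only a string of letters in a window.

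NDUFA4L2, a paralog of the complex IV subunit NDUFA4 that hypoxia is known to induce, rose most among the members in both lines. Its level was 3.71, 4.22 and 3.56 FPKM in LP-1 with DHA, against 0.820, 0.950 and 0.860 FPKM with DMSO. In U266 it was 3.59, 4.16 and 5.87 FPKM with DHA, against 1.82, 1.52 and 1.38 FPKM with DMSO. The groups did not overlap in either line, and means were 4.37-fold higher in LP-1 and 2.89-fold higher in U266. The log2 change was 1.36 ± 0.09 (SE) in LP-1 (adjusted p = 0.000263) and 1.09 ± 0.15 in U266 (adjusted p = 0.000332). The difference between the lines, 0.27 ± 0.19, did not pass (adjusted p = 0.280). In LP-1 every DMSO value was under 1 FPKM, so NDUFA4L2 passed the filter through its DHA libraries alone. Its LP-1 p-value is therefore not independent of the rise. With no filter the LP-1 call was kept. The levels of NDUFA4L2 remained low beside those of NDUFA4, which had 25.7, 26.3 and 27.0 FPKM in LP-1 with DHA, against 37.7, 27.7 and 44.7 with DMSO. NDUFA4 itself fell in U266 (log2 change -0.20, adjusted p = 0.0310) and did not pass in LP-1 (-0.44, adjusted p = 0.0801).

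Complex I takes electrons from NADH in a matrix arm and pumps protons in a membrane arm. Of its 37 nuclear members, 10 fell and 1 rose in LP-1 (median -0.49), and 17 fell in U266 (median -0.20). Without LP-1 DMSO replicate 3, 14 fell and 2 rose (median -0.21). The LP-1 share with all libraries was near the 20.2% of all tested genes. By module, 1 of 8 members of the electron-input module, which binds NADH, fell in LP-1 and 2 of 8 in U266; in the ubiquinone-reducing module these were 3 of 8 in each line, and among the 21 other, mostly membrane-arm members 6 fell in LP-1 and 12 in U266. Without LP-1 DMSO replicate 3 the LP-1 counts were 2, 2 and 10 for these modules. Of all tested genes 19.6% were called lower in U266, and 27.0% in LP-1 without DMSO replicate 3. The shares of the electron-input module were near or below those of all genes. Differences between modules were not tested.

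NDUFS1, the largest complex I subunit and a carrier of iron-sulfur clusters in the electron-input module, was 15.3, 15.6 and 16 FPKM in LP-1 with DHA, against 12.5, 11.8 and 11 FPKM with DMSO. In U266 it was 14.9, 16.8 and 14.5 FPKM with DHA, against 19.8, 18.8 and 19.7 FPKM with DMSO. DHA and DMSO libraries were fully separated in each line, in opposite directions. NDUFS1 rose by 0.38 ± 0.08 in LP-1 (adjusted p = 0.00974) and fell by 0.32 in U266 (SE 0.06, adjusted p = 0.00300). With the exon length trend removed the LP-1 change was no longer past the threshold, and likewise without DHA replicate 2 or 3; over all alternatives it ran between 0.13 and 0.52.

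**Figure D3:**
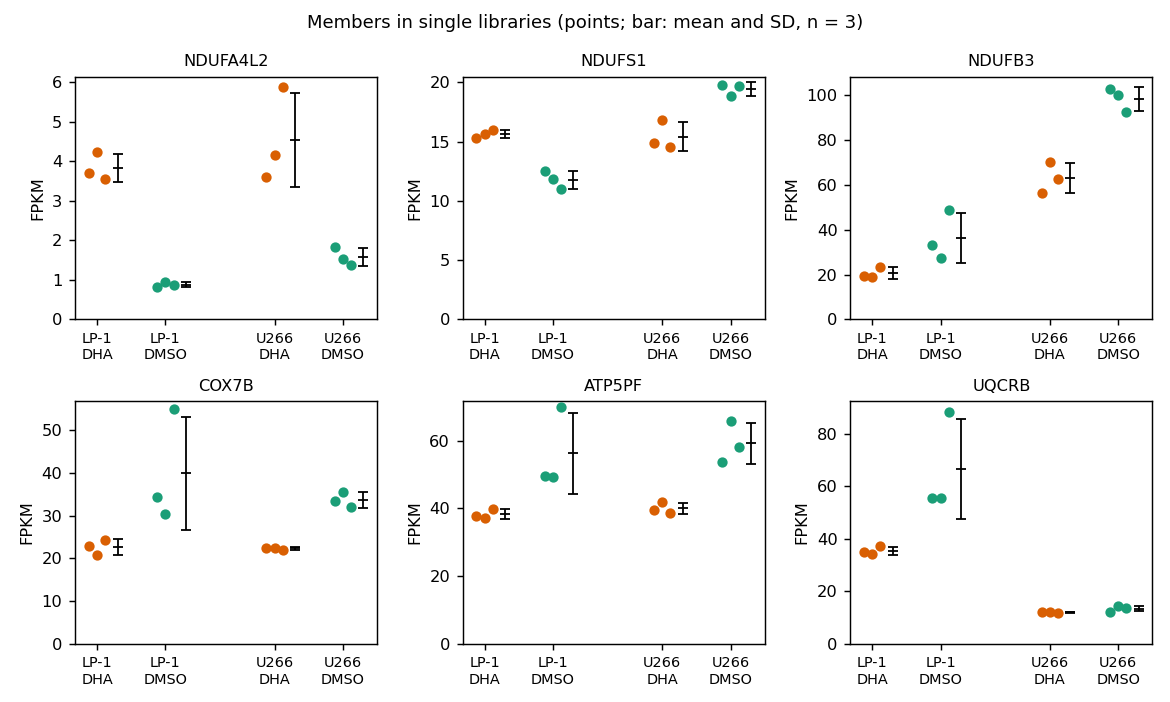
FPKM in single libraries (vertical axes, linear, starting at 0) of 6 members in LP-1 and U266, with DHA left of DMSO; points are libraries in replicate order, and the bar beside them is the mean ± SD (n = 3). NDUFA4L2 is higher with DHA in both lines, NDUFS1 is higher in LP-1 and lower in U266, and DMSO replicate 3 is the highest LP-1 library for NDUFB3, COX7B, ATP5PF and UQCRB.

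The other named subunits of the electron-input module were NDUFV1 and NDUFV2. NDUFV1, which binds the flavin and NADH, passed in neither line (-0.38, adjusted p = 0.152 in LP-1; -0.04, adjusted p = 0.619 in U266). NDUFV2, its iron-sulfur partner, was 20.9, 19.4 and 21.3 FPKM in LP-1 with DHA, against 28.7, 26.0 and 40.8 FPKM with DMSO, and fell by 0.58 (adjusted p = 0.0327). In U266 NDUFV2 was 4.68, 5.15 and 4.14 FPKM with DHA, against 3.55, 3.75 and 4.55 FPKM with DMSO, and those groups overlapped (0.19, adjusted p = 0.186). NDUFS8, an iron-sulfur subunit outside this module, fell in both lines, to means of 11.8 ± 0.297 FPKM with DHA, against 19.5 ± 5.4 with DMSO in LP-1, and 15.5 ± 0.604 with DHA, against 18.4 ± 1.54 with DMSO in U266 (SD, n = 3 each).

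In the membrane arm, the accessory subunit NDUFB3 was 19.4, 18.9 and 23.6 FPKM in LP-1 with DHA, against 33.2, 27.3 and 48.8 FPKM with DMSO. In U266 it was 56.5, 70.1 and 62.6 FPKM with DHA, against 103, 100 and 92.5 FPKM with DMSO. Both lines were without overlap, with log2 changes of -0.76 (adjusted p = 0.0315) in LP-1 and -0.64 (adjusted p = 9.86e-05) in U266. NDUFS5, which faces the intermembrane space, had the highest FPKM of the nuclear complex I members in LP-1: 157, 152 and 156 in LP-1 with DHA, against 247, 206 and 406 with DMSO. It fell in both lines, by 0.82 in LP-1 (adjusted p = 0.0365) and 0.48 in U266 (adjusted p = 0.00217). NDUFA3 and NDUFB1, small membrane-arm subunits, fell by 0.86 (adjusted p = 0.0237) and 0.85 (adjusted p = 0.0441) in LP-1, and by 0.27 (adjusted p = 0.0206) and 0.25 (adjusted p = 0.0207) in U266. NDUFC1 fell in U266, with 42.6, 38.3 and 38.5 FPKM with DHA, against 58.1, 65.0 and 56.2 with DMSO (-0.57, adjusted p = 7.76e-05), and did not pass in LP-1 (-0.71, adjusted p = 0.0841). Without DMSO replicate 3, NDUFB9 was called higher in LP-1 (0.21, adjusted p = 0.0205), where all 3 DHA values lay above those of DMSO replicates 1 and 2.

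Of complex II, which oxidises succinate and has no mitochondrially encoded subunit, 1 of 4 members was called lower in each line, SDHC. This membrane anchor was 68.2, 73.5 and 75.2 FPKM in LP-1 with DHA, against 101, 89.2 and 119 FPKM with DMSO (-0.50, adjusted p = 0.0189). In U266 it was 8.59, 8.34 and 7.21 FPKM with DHA, against 8.79, 10.1 and 10.5 FPKM with DMSO (-0.25, adjusted p = 0.0391). The SDHC call was lost in 4 of 16 alternatives in LP-1 and in 8 of 16 in U266. A share of 1 in 4 is near the 20.2% of all tested genes called lower in LP-1 and the 19.6% in U266. The flavin subunit SDHA, the iron-sulfur subunit SDHB and the anchor SDHD passed in neither line; their log2 changes were -0.40, -0.47 and -0.28 in LP-1 with all libraries and 0.10, -0.15 and -0.13 in U266.

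Complex III passes electrons from ubiquinol to cytochrome c. In LP-1, 4 of its 10 nuclear members fell (median -0.56), and in U266 5 of 10 (median -0.23); UQCR10, a small subunit, was in both sets. Without LP-1 DMSO replicate 3, 6 of 10 fell in LP-1 (median -0.33). Among all tested genes 20.2% were called lower in LP-1, 19.6% in U266 and 27.0% in LP-1 without DMSO replicate 3. UQCR10 had 43.5, 47.2 and 41.6 FPKM in LP-1 with DHA, against 70.3, 57.1 and 96.2 with DMSO, and 30.1, 26.9 and 26.6 FPKM in U266 with DHA, against 31.2, 34.0 and 41.2 with DMSO. No DHA value reached a DMSO value in either line (-0.71, adjusted p = 0.0249 in LP-1; -0.33, adjusted p = 0.0160 in U266). UQCRB, a small subunit near the ubiquinone site, was 34.9, 34.2 and 37.1 FPKM in LP-1 with DHA, against 55.6, 55.3 and 88.4 with DMSO (-0.86, adjusted p = 0.0135). In U266 it was 12.1, 12.0 and 11.7 FPKM with DHA, against 12.2, 14.3 and 13.6 with DMSO (-0.15, adjusted p = 0.105).

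Among the catalytic subunits of complex III, CYC1, cytochrome c1, fell in U266 (52.6, 48.1 and 45.3 FPKM with DHA, against 54.7, 60.2 and 61.1 with DMSO; -0.27, adjusted p = 0.00832), whereas in LP-1 its groups overlapped (-0.01, adjusted p = 0.931). UQCRFS1, the Rieske iron-sulfur protein, passed in neither line (-0.43, adjusted p = 0.147 in LP-1; 0.08, adjusted p = 0.274 in U266). Of the core proteins, UQCRC1 fell in U266 (-0.29, adjusted p = 0.00293) and UQCRC2 in LP-1 (-0.36, adjusted p = 0.0188). UQCRQ fell in U266 (-0.39, adjusted p = 0.000847). UQCRHL is an intronless near-copy of UQCRH, so reads may be split between them: it was called lower in LP-1 (-0.85, adjusted p = 0.0182) and UQCRH was not (-0.64, adjusted p = 0.0971).

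Complex IV, cytochrome c oxidase, has subunits with tissue isoforms. Of its 19 nuclear members, 12 were tested in LP-1, where 2 fell and 1 rose, and 14 in U266, where 7 fell and 2 rose. Without LP-1 DMSO replicate 3, 3 of the 12 fell and 2 rose. Of all tested genes, 20.2% were called lower and 20.0% higher in LP-1, and 19.6% and 21.1% in U266. In LP-1 without DMSO replicate 3 these were 27.0% and 28.9%. The LP-1 shares of complex IV members were below those of all genes in both fits. COX7B, a small membrane subunit, was 22.8, 20.8 and 24.4 FPKM in LP-1 with DHA, against 34.4, 30.4 and 55 with DMSO, and 22.5, 22.4 and 22 FPKM in U266 with DHA, against 33.5, 35.6 and 31.9 with DMSO. It fell in both lines without overlap (-0.75, adjusted p = 0.0343 in LP-1; -0.57, adjusted p = 2.20e-05 in U266). COX6B1, on the intermembrane side, also fell in both (-0.68, adjusted p = 0.0402; -0.28, adjusted p = 0.00751). COX4I1, COX5A, COX6A1 and COX8A, which surround the catalytic core, did not pass in either line; their log2 changes ran between -0.55 and -0.34 in LP-1 and between -0.14 and -0.05 in U266. COX7C fell in U266 (-0.34, adjusted p = 0.00754) and did not pass in LP-1 (-0.74, adjusted p = 0.0778).

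COX7A2L, which joins complexes III and IV in supercomplexes, went the other way: it was 37.6, 37.4 and 36.7 FPKM in U266 with DHA, against 32.4, 32.7 and 34.4 with DMSO (0.16, adjusted p = 0.0171). This call was lost in 7 of 16 alternatives: without U266 DHA replicate 2, DMSO replicate 1 or DMSO replicate 2, with TMM-style scaling, with no variance trend, with the exon length trend removed and in a single fit of all 12 libraries. In LP-1 it was 34.4, 34.5 and 37.7 FPKM with DHA, against 31.0, 28.6 and 49.6 with DMSO, so that its call depended on DMSO replicate 3 (0.01, adjusted p = 0.978 with it; 0.25, adjusted p = 0.0173 without it). COX7A2, the common isoform, was 60.2, 54.2 and 51.2 FPKM in U266 with DHA, against 66.4, 71.5 and 70.4 with DMSO (-0.33, adjusted p = 0.00213). The LP-1 table lists it at 0.69, 0.48 and 0.66 FPKM with DHA, against 0.58, 0.5 and 0.44 with DMSO, under the 1 FPKM needed for testing. The tables were made separately, so a low level in the line and a low value from how that table assigned reads cannot be told apart here. Several isoforms of other tissues were near 0 in LP-1: COX4I2, COX6A2, COX6B2, COX7A1 and COX8C stayed at or under 0.27 FPKM in every library. In U266, COX4I2, COX6A2 and COX8C stayed at or under 0.686 FPKM, while COX7A1 reached 3.27 and COX6B2 1.07 FPKM in DHA replicate 3, the library with the most genes above 0, against at most 1.05 and 0.416 FPKM in the other U266 libraries. COX7B2, at 0 in LP-1, was 13.1, 18.1 and 12.4 FPKM in U266 with DHA, against 19.5, 21.2 and 15.5 with DMSO (-0.36, adjusted p = 0.0633).

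Of complex V, the ATP synthase, 4 of 17 tested members fell in LP-1 (median -0.53) and 14 of 17 in U266 (median -0.35). The LP-1 share was near that of all tested genes, and without DMSO replicate 3 it was 9 of 17 (median -0.32, against 27.0% of all genes called lower). The catalytic subunits ATP5F1A and ATP5F1B fell in U266 by 0.34 (adjusted p = 0.00130) and 0.23 (adjusted p = 0.0105). ATP5F1B, the beta subunit and the highest nuclear member, was 293, 277 and 257 FPKM in U266 with DHA, against 315, 332 and 323 with DMSO. In LP-1 neither passed (-0.34, adjusted p = 0.137 and -0.19, adjusted p = 0.317), and ATP5F1B was 441, 459 and 448 FPKM with DHA, against 520, 432 and 596 with DMSO. ATP5PO, the stalk subunit that confers oligomycin sensitivity, fell in U266 (-0.38, adjusted p = 0.00121) and did not pass in LP-1 (-0.43, adjusted p = 0.211).

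ATP5PF, coupling factor 6 of the stalk, was 37.6, 37.2 and 39.9 FPKM in LP-1 with DHA, against 49.4, 49.3 and 69.9 with DMSO, and 39.6, 41.8 and 38.7 FPKM in U266 with DHA, against 53.8, 65.8 and 58.2 with DMSO. DHA lay below DMSO in all libraries of both lines, and the log2 changes were close: -0.53 (adjusted p = 0.0304) and -0.55 (adjusted p = 0.000177). ATP5MF, a membrane subunit, fell in both as well (-0.56, adjusted p = 0.0112; -0.40, adjusted p = 0.00953). ATP5IF1, the inhibitor that stops the synthase from running backwards, fell in LP-1 (57.7, 55.9 and 57.5 FPKM with DHA, against 85.4, 81.4 and 119 with DMSO; -0.71, adjusted p = 0.0122) and did not pass in U266 (-0.19, adjusted p = 0.0578).

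ATP5MC1, ATP5MC2 and ATP5MC3 encode the same mature subunit c of the rotor, and their calls differed between the lines. In U266, ATP5MC1 was 15.9, 18 and 15.9 FPKM with DHA, against 24.6, 27.2 and 25.6 with DMSO, and ATP5MC3 was 16.6, 17 and 15.3 with DHA, against 25.6, 28.7 and 25.5 with DMSO. Both fell there without overlap (-0.61, adjusted p = 5.35e-05; -0.67, adjusted p = 2.65e-05), whereas ATP5MC2 was 48.9, 44.2 and 42.4 FPKM with DHA, against 44.3, 50.9 and 46.7 with DMSO (-0.06, adjusted p = 0.480). In LP-1 the call fell on ATP5MC2, with 47.0, 46.9 and 50.5 FPKM with DHA, against 77.7, 62.9 and 125 with DMSO (-0.80, adjusted p = 0.0370), and not on ATP5MC1 (-0.52, adjusted p = 0.118) or ATP5MC3 (-0.66, adjusted p = 0.0860). The differences among the 3 genes within a line were not tested.

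The 13 mitochondrially encoded protein genes, measured in LP-1 only, summed to 43176, 41500 and 42612 FPKM with DHA, against 67524, 76212 and 45509 FPKM with DMSO. This is 15.9, 15.3 and 15.5% of all FPKM with DHA, against 21.8, 24.9 and 14.0% with DMSO. DMSO replicates 1 and 2 were above all DHA libraries in share and DMSO replicate 3 was below them. Of the 13 genes, 4 fell and 9 did not pass (median -0.48), where 20.2% of all tested genes were called lower. Without DMSO replicate 3, 12 of 13 were called lower, with a median of -0.71, against 27.0% of all tested genes. All 13 then had every DHA value below both remaining DMSO values, as 35.0% of all tested genes did. The count called lower was 2 without any single DHA library or without DMSO replicate 1. In those fits 12.6 to 13% of all tested genes were called lower. The median was -0.29 without DMSO replicate 1 and -0.06 without DMSO replicate 2.

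MT-ND6, the complex I subunit encoded alone on the other DNA strand (chrM:14149-14673, minus strand, GENCODE v29 on GRCh38), fell most. It was 898, 817 and 873 FPKM with DHA, against 2840, 3270 and 2370 FPKM with DMSO. The means were 863 ± 41.4 with DHA and 2820 ± 450 with DMSO (SD, n = 3 each), a log2 change of -1.70 (adjusted p = 0.000746). The call was kept in all 15 alternatives tried, with log2 changes between -1.82 and -1.35. The labels do not say whether counting used strand, so reads from MT-ND6 and from the transcript opposite it cannot be told apart. As a part of the 13-gene sum it was 0.0208, 0.0197 and 0.0205 with DHA, against 0.0420, 0.0429 and 0.0520 with DMSO.

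MT-ND3, a small complex I subunit, was 1850, 1740 and 1790 FPKM with DHA, against 2890, 3210 and 3570 with DMSO (-0.84, adjusted p = 0.00625). MT-CO2 and MT-CO3, core subunits of complex IV, were called lower too. MT-CO2 was 6350, 6210 and 6550 FPKM with DHA, against 11800, 12700 and 9730 with DMSO (-0.83, adjusted p = 0.0193). MT-CO3 changed by -0.62 (adjusted p = 0.0453). The call of MT-ND3 was lost in 2 of 15 alternatives, that of MT-CO2 in 7 of 15 and that of MT-CO3 in 10 of 15. MT-CO1, which holds the oxygen-reducing centre, did not overlap between the groups (5650, 5490 and 5470 FPKM with DHA, against 9700, 11000 and 6580 with DMSO) and missed the threshold (-0.68, adjusted p = 0.0669).

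The proton-pumping subunits MT-ND4 and MT-ND5 show the weight of DMSO replicate 3. MT-ND4 was 4540, 4420 and 4420 FPKM with DHA, against 8790, 9870 and 4360 with DMSO, and MT-ND5 was 1270, 1240 and 1210 with DHA, against 2240, 3060 and 748 with DMSO. With all libraries neither passed (-0.70, adjusted p = 0.137 and -0.48, adjusted p = 0.474), and without DMSO replicate 3 they were -1.06 (adjusted p = 0.000350) and -1.08 (adjusted p = 0.00104). MT-ND1, MT-ND2, MT-ND4L, MT-CYB, MT-ATP6 and MT-ATP8 had log2 changes between -0.16 and 0.23 with all libraries, and between -0.54 and -0.26 without DMSO replicate 3. Of these, only MT-ATP8 did not pass in the smaller set (-0.36, adjusted p = 0.0803). MT-ATP8 overlaps MT-ATP6 and MT-ND4L overlaps MT-ND4, so counts of these pairs are not independent.

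**Figure D4:**
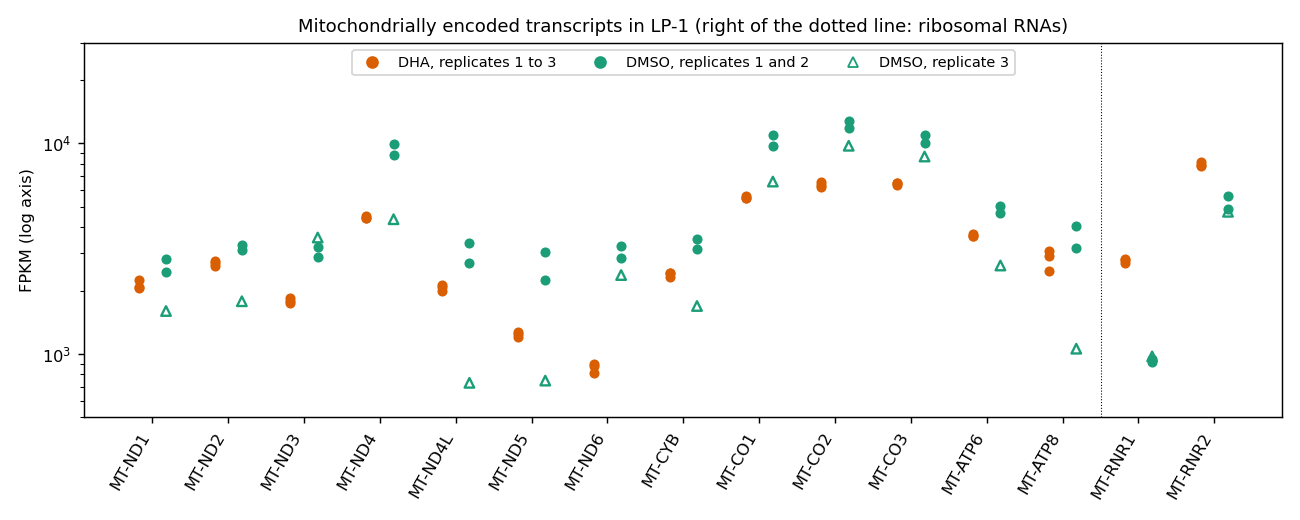
FPKM (vertical axis, log scale) of the 13 mitochondrially encoded protein genes and the 2 mitochondrial ribosomal RNAs in LP-1 libraries, with DHA left of DMSO for each gene; open triangles are DMSO replicate 3. DMSO replicates 1 and 2 lie above the DHA libraries for every protein gene and below them for both ribosomal RNAs, and DMSO replicate 3 falls below the DHA libraries for 8 protein genes.

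The ribosomal RNAs of the same genome, which are not among the 101 genes and were picked out after their values were seen, went the opposite way. MT-RNR1, the small-subunit ribosomal RNA, was 2810, 2710 and 2780 FPKM with DHA, against 912, 951 and 974 FPKM with DMSO (1.55 ± 0.12, adjusted p = 0.000371). MT-RNR2, the large one, was 8140, 7780 and 7890 FPKM with DHA, against 4870, 5590 and 4730 with DMSO (0.65 ± 0.18, adjusted p = 0.0285). The call of MT-RNR2 was lost in 6 of 15 alternatives, and that of MT-RNR1 in 0 of 15. MT-RNR1 lies before MT-ND1 on the same precursor, and its ratio to MT-ND1 was 1.25, 1.32 and 1.33 with DHA, against 0.371, 0.339 and 0.607 with DMSO. DMSO replicate 3 lay on the side of its own group in this ratio. The labels name both total RNA and an mRNA library kit, and how ribosomal RNA was depleted or selected is not stated.

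The direct test of the difference between the lines, LP-1 change minus U266 change, called 8 of 80 nuclear members lower and 1 higher, against 16.0% and 18.5% of the 8934 genes tested. The median difference over members was -0.25, and -0.01 without LP-1 DMSO replicate 3. The gene called higher was NDUFS1 (0.70 ± 0.10, adjusted p = 0.000367). Those called lower included NDUFA10 (-0.36, adjusted p = 0.0151), NDUFA13 (-0.90, adjusted p = 0.0463), NDUFV2 (-0.78, adjusted p = 0.0111), SDHA (-0.50, adjusted p = 0.0438), UQCRB (-0.71, adjusted p = 0.0194), ATP5IF1 (-0.52, adjusted p = 0.0383) and ATP5MC2 (-0.74, adjusted p = 0.0431). NDUFA13, also known as a cell death regulator, was 3.10, 3.57 and 3.17 FPKM in LP-1 with DHA, against 5.03, 3.88 and 9.96 with DMSO, and 1.29, 1.46 and 1.58 FPKM in U266 with DHA, against 0.895, 1.40 and 1.04 with DMSO. It was called in neither line alone. The count of members called lower was 3, 4 and 4 without LP-1 DHA replicates 1, 2 and 3, 5 and 32 without LP-1 DMSO replicates 1 and 2, and 5, 5, 4, 3 and 4 without U266 DHA replicates 1, 2 and 3 and DMSO replicates 1 and 3. In these fits 12.1 to 14.1% of all tested genes were called lower, and 19.5% without LP-1 DMSO replicate 2, where the median over members was -0.44. Without LP-1 DMSO replicate 3, 11 of 80 members and 21.7% of all tested genes were called lower. The members' share with all libraries was below that of all genes. NDUFS1 and NDUFV2 were called in every alternative.

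**Figure D5:**
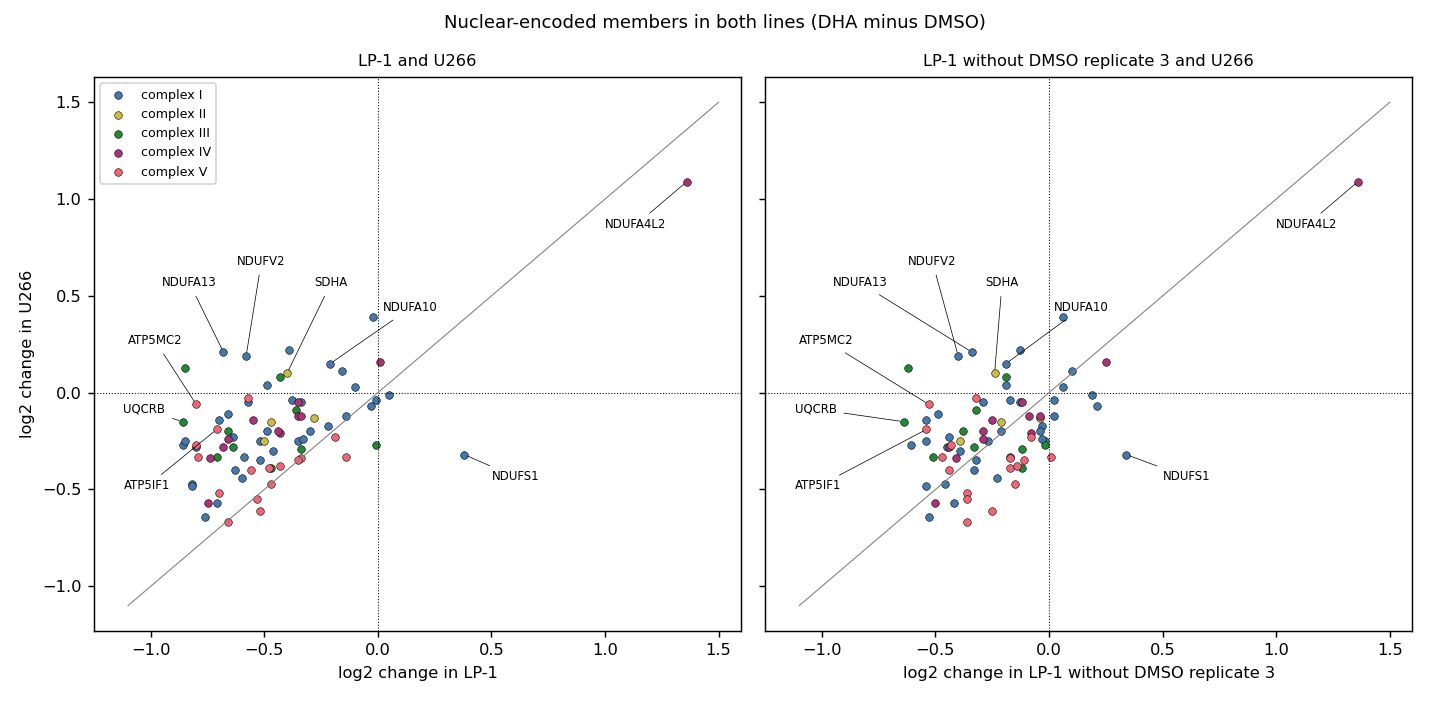
Log2 change of the 80 nuclear members tested in both lines, LP-1 (horizontal axis, all libraries on the left, without DMSO replicate 3 on the right) and U266 (vertical axis), coloured by complex; the grey line marks equal change, and names are given to NDUFA4L2 and to genes named in the text that were called in the test between lines. Of the 80 points, 66 lie left of the grey line in the left panel and 42 in the right panel.

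Genes that build and feed the chain were mixed, and the lists were chosen with results of these data known. Their counts stand against 20.2% lower and 20.0% higher among all tested genes in LP-1, 27.0% and 28.9% there without DMSO replicate 3, and 19.6% and 21.1% in U266, and several are near these shares. Of the named calls on these lists, 12 of 26 in LP-1 and 12 of 27 in U266 were kept in every alternative in which the gene was tested. Complex I assembly factors fell in 5 of 19 tested and rose in 1 in LP-1, and fell in 4 of 19 and rose in 1 in U266. In LP-1 without DMSO replicate 3, 5 fell and 6 rose. NDUFAF3 fell in both (-0.65, adjusted p = 0.0193; -0.41, adjusted p = 0.00544), NDUFAF6 fell in LP-1 (-0.68, adjusted p = 0.00208) and NDUFAF8 in U266 (-0.69, adjusted p = 6.77e-05). FOXRED1 rose in LP-1 (0.58, adjusted p = 0.00375) and ECSIT in U266 (0.29, adjusted p = 0.00384). For complex II, SDHAF4 fell in LP-1 (-1.04, adjusted p = 0.00416) and SDHAF1 rose in U266 (0.41, adjusted p = 0.00188), among 3 and 4 tested. For complex III, 3 of 9 fell and 1 rose in LP-1, with UQCC6 at -0.69, UQCC5 at -0.53 and BCS1L, which inserts the Rieske protein, at 0.37 (adjusted p = 0.0233, 0.0414 and 0.0161), and LYRM7 was the 1 of 6 that fell in U266 (-0.49, adjusted p = 0.000346).

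Complex IV assembly factors rose in 3 and fell in 3 of 26 in LP-1, and rose in 2 and fell in 3 of 23 in U266. In LP-1 without DMSO replicate 3, 4 rose and 7 fell. COX19, a copper-handling factor, rose in both, with 5.34, 5.63 and 5.27 FPKM in LP-1 with DHA, against 2.66, 2.94 and 3.51 with DMSO, and 6.55, 6.85 and 6.75 FPKM in U266 with DHA, against 3.20, 3.24 and 3.04 with DMSO. Its log2 changes were 0.67 (adjusted p = 0.00339) and 0.89 (adjusted p = 1.64e-05). COA7 rose in LP-1 (0.79, adjusted p = 0.000616), COA5 and COA4 fell there (-0.65, adjusted p = 0.00854; -0.59, adjusted p = 0.0132), and in U266 COA8 rose (0.40, adjusted p = 0.0216) while COA3 (-0.65, adjusted p = 4.28e-05) and HIGD1A (-0.37, adjusted p = 0.000953) fell. For complex V, ATP23 and ATPAF1 fell in LP-1 (-0.64, adjusted p = 0.00302; -0.52, adjusted p = 0.00393), 2 of 7 tested, and TMEM242 rose in U266 (0.30, adjusted p = 0.0227), 1 of 6.

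Genes of mitochondrial DNA upkeep and expression rose in 6 and fell in 4 of 28 in LP-1, and rose in 4 and fell in 11 of 29 in U266. For LP-1, 11 rose and 5 fell without DMSO replicate 3. TFAM, which packages mitochondrial DNA and starts its transcription, was 18.9, 19.4 and 19.4 FPKM in LP-1 with DHA, against 14.6, 13.5 and 15.2 with DMSO (0.40, adjusted p = 0.00751), and did not pass in U266 (-0.10, adjusted p = 0.156). The mitochondrial RNA polymerase POLRMT did not pass in LP-1 (0.01, adjusted p = 0.944) and fell in U266 (-0.25, adjusted p = 0.0166). LRPPRC, which stabilises mitochondrial mRNAs, rose in LP-1 (0.26, adjusted p = 0.0243) and fell in U266 (-0.15, adjusted p = 0.0498). These calls were lost in 6 of 16 alternatives in LP-1, with log2 changes between 0.06 and 0.40, and in 11 of 16 in U266, between -0.20 and -0.06. MTERF2, a mitochondrial transcription factor of the terminator family, fell in both (-1.14, adjusted p = 0.00211; -0.41, adjusted p = 0.0158), as did FASTKD1 (-0.35, adjusted p = 0.0127; -0.47, adjusted p = 0.000225) and TRMT10C, a subunit of the enzyme that cuts transfer RNAs out of the precursors (-0.50, adjusted p = 0.0443; -0.48, adjusted p = 0.00236). SUPV3L1, a helicase of mitochondrial RNA decay, rose in both (0.48, adjusted p = 0.00313; 0.35, adjusted p = 0.000953), PRIMPOL rose in U266 (0.38, adjusted p = 0.00688), and POLG2 fell in LP-1 (-0.36, adjusted p = 0.0140) and rose in U266 (0.41, adjusted p = 0.0165).

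Coenzyme Q genes rose in 3 of 12 in LP-1, and rose in 4 and fell in 2 of 11 in U266; without LP-1 DMSO replicate 3, 4 rose and 1 fell in LP-1. COQ10B, which binds coenzyme Q, rose in both (0.47, adjusted p = 0.0185; 0.44, adjusted p = 0.000611), PDSS1, which makes its side chain, rose in LP-1 (0.55, adjusted p = 0.0229) and fell in U266 (-0.40, adjusted p = 0.0123), COQ8B rose in U266 (0.63, adjusted p = 0.0240) and COQ10A fell there (-0.41, adjusted p = 0.00232). Among other electron donors, 2 of 8 fell in LP-1, ETFB (-0.81, adjusted p = 0.0432) and SUOX (-0.59, adjusted p = 0.00916), and ETFDH rose in U266 (0.32, adjusted p = 0.00109), 1 of 7. Of these donors, 4 fell and 1 rose in LP-1 without DMSO replicate 3. CYCS, cytochrome c itself, did not pass in either line (0.10, adjusted p = 0.646; 0.03, adjusted p = 0.756). Of 11 regulators of mitochondrial biogenesis, 2 rose in LP-1, TFEB (0.46, adjusted p = 0.0124) and GABPB2 (0.49, adjusted p = 0.0265); in U266 TFEB (0.44, adjusted p = 0.0338) and GABPA (0.16, adjusted p = 0.0497) rose and PPRC1 fell (-0.41, adjusted p = 0.00151). The U266 calls of GABPA and TFEB were lost in 13 of 16 and 7 of 15 alternatives. In LP-1, 4 regulators rose without DMSO replicate 3. PPARGC1A, NRF1 and ESRRA passed in neither line, with log2 changes of 0.19, 0.13 and 0.15 in LP-1 and 0.08, -0.05 and 0.15 in U266.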

How the data were processed

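RNA-seq of LP-1 and U266 cells was used as FPKM values, 1 table for each line, as deposited by the authors. Per the labels' protocols, total RNA went into a SMARTER mRNA library kit. The submitters' processing notes list GRCm38 and mm10, which are mouse builds, although the genes in the tables are human. Aligner, counter and annotation: not given in the sources used here. LP-1 rows were named by Ensembl ID (61804 of 61806 matched) and U266 rows by symbol (19081 of 19130 matched), with older ATP5 symbols brought to current ones; ATP5MJ, found in LP-1 only, and read-through genes were left out. Depth per library was recovered from what 1 read is worth at low FPKM, using GENCODE v29 exon lengths; 87.9 to 89.0% of low values in LP-1 and 94.6 to 95.6% in U266 were within 0.1 of a whole read, so no count test was run.

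Values were log2(FPKM + 1), kept at 1 FPKM or more in at least 3 of 6 libraries. This scale understates changes of genes with low values. The lines were fitted separately in limma 3.58.1 under R 4.3.3 (lmFit, then eBayes with trend; two-sided; Benjamini-Hochberg over the genes tested; threshold 0.05). The difference between lines was the interaction contrast over all 12 libraries. The fit was tested on simulated data, with values drawn independently for each gene and no library set apart. That test does not cover a library like LP-1 DMSO replicate 3. No test was run over the members as a list. Alternatives were pseudocount, filter, scaling, variance trend, replicate block, exon length, a single fit of all libraries, and leaving out libraries. The tables were made separately, so levels were not compared between lines.

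The members, lists and tests were chosen with earlier results of these data known. Named genes were, per complex and line, up to 3 called members with the largest change each way and separated groups, members called in both lines or between lines, and a fixed set of catalytic and isoform genes; for other pathway lists, up to 2 each way plus 9 regulators. NDUFA10, NDUFB9, UQCRH, COX6A2, COX6B2, COX7B2, COX8C and the mitochondrial ribosomal RNAs lie outside this rule and were named after their values were seen. 1 member is counted but its values are not reported here.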

Additional observations from a re-analysis of the deposited data

Results flagged for a closer look

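These members are listed because their change with DHA differed between the lines in the interaction test (LP-1 change minus U266 change). NDUFS1 was the gene with the positive difference, 0.70, and it was called in all 21 alternatives, with values between 0.48 and 0.84. Negative differences were NDUFA10 at -0.36, NDUFA13 at -0.90, NDUFV2 at -0.78, SDHA at -0.50, UQCRB at -0.71, ATP5IF1 at -0.52 and ATP5MC2 at -0.74. NDUFV2 was called in all 20 alternatives it could be fitted in, and NDUFA10 and UQCRB missed the threshold in 1 of 21 each. SDHA missed it in 15 of 20, NDUFA13 in 12 of 20, ATP5MC2 in 11 of 21 and ATP5IF1 in 8 of 21. In LP-1, DMSO replicate 3 was the highest DMSO library for each of these genes with a negative difference and the lowest for NDUFS1. Without it the differences of these genes kept their signs.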

How the results depend on the processing

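Counts of nuclear members called lower in LP-1 (21) were 7 with no filter and 48 with all 12 libraries in one fit, and 0 to 48 when single libraries were left out; members called higher (2) numbered 1 with a mean of at least 5 FPKM and 1 with the exon length trend removed, and 0 to 4 when libraries were left out. Their median (-0.49) ran between -0.67 and -0.24 without single libraries. Mitochondrial genes called lower (4) were 1 with no filter, 2 with quantile normalization, 2 with the replicate block and 2 with the length trend removed, and 2 to 12 without single libraries; quantile normalization called 1 higher, with a median of 0.03, and the median ran between -0.71 and -0.06 without single libraries. In U266, 44 members called lower became 8 of 80 in one fit of all libraries, where 12.4% of all genes were called lower, a fit that pools the spread of both lines, and the 2 called higher became 1 with a mean of at least 5 FPKM, with TMM-style scaling or with the length trend removed, and 1 to 2 without single libraries. For the difference between lines (8 lower, 1 higher), no filter gave 4 and 2, quantile normalization, rescaling and the length trend gave 3 higher each, and leaving out libraries gave 3 to 32 lower and 1 to 5 higher. Rescaling without immunoglobulin and mitochondrial genes moved the median of all LP-1 genes to 0.13, against 0.01. The replicate block gave 25 lower in LP-1 and 44 in U266. The labels do not say whether libraries of the same number were paired. Deviations of same-numbered DHA and DMSO libraries had correlations of 0.07, 0.02 and 0.18 in LP-1 and -0.04, -0.08 and -0.02 in U266. Of the numbers, 1 of 3 in LP-1 and 0 of 3 in U266 correlated best with themselves. With so few libraries per group, these values cannot decide whether pairing was present. Of the named members called, 2 of 25 in LP-1 (NDUFA4L2 and MT-ND6) and 8 of 27 in U266 were called in every alternative in which they were tested. In LP-1, NDUFA4L2 was tested in only 12 alternatives. It missed the filter whenever a DHA library was left out and with a mean of at least 5 FPKM. Its call was thus not put to those settings. Where a setting changed a result, the cause was not tested.

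Log2 changes that turned sign were, under quantile normalization, MT-CO3 0.01, CYC1 0.10, ATP5F1B 0.29, MT-ND1 0.46, MT-ND5 0.10, MT-CYB 0.03, MT-ATP6 0.15 and POLRMT -0.03 in LP-1, and UQCRHL -0.04, ATP5MC2 0.03, NDUFA13 -0.10, SDHA -0.16 and PPARGC1A -0.21 in U266. With rescaling they were CYC1 0.13, MT-ND1 0.08, MT-ATP6 0.04 and LYRM7 0.10 in LP-1. With the length trend removed they were COX7A2L -0.05, CYC1 0.19, MT-ND1 0.16, MT-CYB 0.08, MT-ATP6 0.12, POLRMT -0.03 and PPARGC1A -0.04 in LP-1, and COX8A 0.06 in U266. Of these, MT-CO3 alone was called in the fit as reported, and ATP5F1B and MT-ND1 were called higher under quantile normalization. Leaving out single libraries turned the sign in LP-1 for COX7A2L (-0.14 to 0.25), CYC1 (-0.09 to 0.07), MT-ND1 (-0.31 to 0.10), MT-ND2 (-0.26 to 0.19), MT-ND4L (-0.54 to 0.56), MT-CYB (-0.48 to 0.05), MT-ATP6 (-0.40 to 0.07), MT-ATP8 (-0.36 to 0.61), LYRM7 (-0.08 to 0.04), POLRMT (-0.04 to 0.06) and CYCS (-0.03 to 0.29), and in U266 for UQCRHL (-0.14 to 0.37), NDUFV1 (-0.09 to 0.01), COX8A (-0.14 to 0.02), UQCC5 (-0.16 to 0.11), ATP23 (-0.01 to 0.14), ATPAF1 (-0.04 to 0.02), ETFB (-0.14 to 0.01), NRF1 (-0.14 to 0.04) and CYCS (-0.03 to 0.09).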
